A study of Homo sapiens with 12 samples.

Results

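Gene expression was compared between serum-fed HEK293T cells transfected with a TRPML3 plasmid and serum-fed HEK293T cells transfected with the empty control vector. HEK293T is an established line of transformed human embryonic kidney cells. The comparison used 6 of the 12 libraries, 3 of each plasmid, chosen by their labels as serum-fed. It covered every gene row of the count table, and 18030 of the 41878 rows had enough counts to be tested. In the whole study, cells received 1 µg of either plasmid by transient transfection with Effectene and were then kept in 10% serum or in 0% serum for 4 h before RNA extraction. The labels describe biological triplicates for each of the 4 conditions, and polyA-enriched RNA was sequenced. All 6 fed libraries therefore came from transfected cells of 1 line, and untransfected cells were not analysed here. The labels do not give the species, promoter or tag of the TRPML3 insert, nor the share of cells that took it up. The title of the series places the comparison in a question about TRPML3, neuronal development genes and autophagy.

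TRPML3, encoded by MCOLN3, is a mucolipin, a cation channel of the endosomal and lysosomal membranes and a relative of TRPML1 (MCOLN1) and TRPML2 (MCOLN2). Mucolipins release calcium and other cations from endolysosomes, and TRPML3 has been linked to membrane trafficking and the formation of autophagosomes. Calcium released from lysosomes can activate calcineurin, which acts on TFEB and TFE3, transcription factors of lysosomal and autophagy genes.

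The fed libraries held between 33101540 and 41024433 counts in gene rows. Expression is given below as CPM, the counts of a gene relative to the total counts of its library, scaled between libraries by the trimmed mean of M-values (TMM), and 3 counts corresponded to at most 0.0906 CPM. All 14 genes of a list of HEK293T-expressed lineage genes were tested, and their summed level was 992, 843 and 719 CPM in vector replicates 1, 2 and 3 and 1130, 976 and 1027 CPM in TRPML3 replicates 1, 2 and 3. Of markers of other cell types, 4 of 10 haematopoietic genes were tested, with sums of 0.66 to 4.47 CPM in vector and 1.04 to 3.78 CPM in TRPML3 libraries. Of 10 fibroblast genes, 7 were tested, with sums of 27.5 to 38.6 and 27.0 to 47.6 CPM, while 5 of 7 endothelial genes summed to 2.04 to 7.49 and 2.44 to 6.33 CPM. Of 7 hepatocyte genes only ALB was tested, at 0.234 to 0.624 CPM over the fed libraries. By rank correlation over tested genes, vector replicate 3 was closer to TRPML3 replicate 3 (0.952) than to vector replicates 1 (0.935) and 2 (0.937), so replicate 3 of both plasmids stood apart from the others. Mitochondrial genome genes took 4.40%, 1.07% and 5.70% of counts in the vector libraries and 3.38%, 2.52% and 4.83% in the TRPML3 libraries. The labels give no batch or date. In bulk RNA, fewer cells expressing a gene and less of its RNA per cell cannot be told apart.

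MCOLN3 RNA rose in the cells given the TRPML3 plasmid and RSL1D1, which encodes a nucleolar protein with a ribosomal L1 domain, rose with it. No other gene passed the test in the fit to all libraries, which was edgeR's quasi-likelihood test with Benjamini-Hochberg adjustment, so 2 of 18030 genes were called (0.0111%). MCOLN3 (ENSG00000055732, chr1:85018082-85048499 on the minus strand, GRCh38) was at 17.3, 12.3 and 18.4 CPM in vector replicates 1 to 3 and at 6208, 4926 and 39950 CPM in TRPML3 replicates 1 to 3. The groups did not overlap, and TRPML3 replicate 3 was well above the other two TRPML3 libraries. MCOLN3 alone took 0.649%, 0.505% and 3.70% of all counts in the TRPML3 libraries. Its log2 fold change was 10.05 with a standard error of 1.03 (edgeR adjusted p = 0.0117). With the replicate number as a block, the edgeR adjusted p was 0.11 and the change was not called. The call was also lost without vector replicate 1, 2 or 3 (edgeR adjusted p = 0.0938, 0.192 and 0.19). Without TRPML3 replicate 3 the log2 fold change was 8.44 (edgeR adjusted p = 0.000499).

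RSL1D1 (ENSG00000171490, chr16:11833850-11851585 on the minus strand, GRCh38) was at 68.7, 60.9 and 74.8 CPM in the vector libraries and at 443, 416 and 507 CPM in the TRPML3 libraries. The replicates of each group lay close together and the groups did not overlap. Its log2 fold change was 2.74 ± 0.25 (SE; edgeR adjusted p = 0.00695). The call was lost with the replicate block (edgeR adjusted p = 0.101) and without vector replicate 2 or 3 (edgeR adjusted p = 0.104 and 0.0715), while the fold change stayed between 2.66 and 2.81 whichever library was left out. In starved cells RSL1D1 was at 278, 322 and 423 CPM with the vector and at 654, 532 and 343 CPM with TRPML3, so the fed vector libraries were the lowest of all 12. The difference between the fed and starved effects was 2.16 on the log2 scale, with an edgeR adjusted p of 0.978 and a DESeq2 adjusted p of 0.000116. RSL1D1 was the only called gene of a list of 74 nucleolar ribosome biogenesis genes, of which 41 were higher with TRPML3, with a median log2 fold change of 0.03 that was -0.24 without TRPML3 replicate 3 and 0.23 without vector replicate 3. The other list members whose groups did not overlap were UTP18, WDR36, DDX52 and SBDS, all higher, with log2 fold changes of 0.16, 0.23, 0.40 and 0.15. Without overlap, 3.22% of all tested genes were higher and 3.87% lower.

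**Figure D1:**
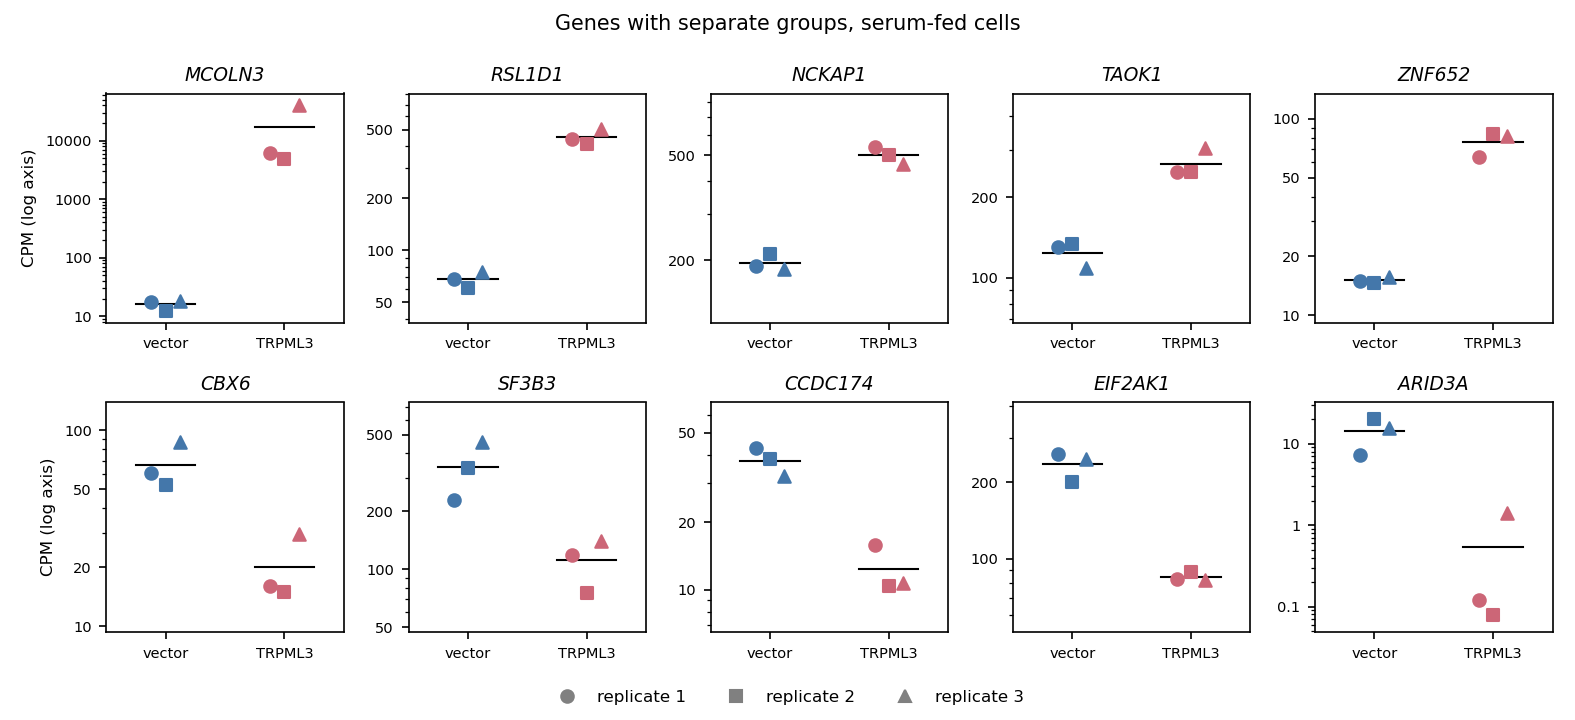
TMM-scaled CPM on a log axis for 10 genes in the 6 fed libraries, with vector in blue and TRPML3 in red. Each symbol is 1 library (circle, square and triangle for replicates 1, 2 and 3) and each line the group mean; in all 10 panels the groups are separate, and only MCOLN3 and RSL1D1 passed the edgeR test.

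Below the 2 called genes, a set of genes had larger values with TRPML3 and no overlap, as did 3.22% of all tested genes. They were among the DESeq2 calls given below, and edgeR called none of them in the fit to all libraries. NCKAP1, a subunit of the WAVE complex that drives actin branching, was at 191, 212 and 185 CPM with the vector and at 537, 503 and 466 CPM with TRPML3, a log2 fold change of 1.36 ± 0.18 (SE; edgeR adjusted p = 0.103). No vector library came near a TRPML3 library, and NCKAP1 was called when TRPML3 starved replicate 1 or 3 was left out (edgeR adjusted p = 0.045 and 0.0357). The TAO kinase gene TAOK1 was at 130, 134 and 109 CPM against 249, 247 and 304 CPM (log2 fold change 1.10 ± 0.20 SE, edgeR adjusted p = 0.787). ZNF652, a zinc-finger transcription factor, was at 14.9, 14.6 and 15.6 CPM against 63.7, 84.1 and 82.0 CPM (log2 fold change 2.35). Its vector libraries lay close together, and the lowest TRPML3 library was 63.7 CPM. The zinc-finger gene ZNF18 had a log2 fold change of 1.16, the zinc-ribbon gene ZNRD2 one of 2.15 and the arsenite methyltransferase gene AS3MT one of 2.39, each with no overlap. AS3MT overlaps the read-through row BORCS7-ASMT, which was at 20.6, 0 and 3.50 CPM in the vector libraries and at 0 in all TRPML3 libraries.

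A second set of DESeq2 calls had smaller values with TRPML3 and no overlap, as did 3.87% of all tested genes. None of them was called by edgeR in the fit to all libraries. CBX6, which encodes a chromodomain protein of the Polycomb repressive complex PRC1, was at 60.8, 52.4 and 86.8 CPM with the vector and at 16.2, 15 and 29.5 CPM with TRPML3 (log2 fold change -1.72 ± 0.32 SE, edgeR adjusted p = 0.831). SF3B3, a subunit of the U2 snRNP, was at 229, 338 and 460 CPM against 119, 75.8 and 140 CPM (log2 fold change -1.62 ± 0.32 SE, edgeR adjusted p = 0.953). EIF2AK1, the haem-regulated kinase of the initiation factor eIF2, was at 259, 202 and 247 CPM against 83.0, 89.0 and 82.2 CPM (log2 fold change -1.48 ± 0.34 SE, edgeR adjusted p = 1). In EIF2AK1 the 3 TRPML3 libraries lay close together, all below the lowest vector library. CCDC174 was at 42.6, 38.2 and 32.1 CPM against 15.9, 10.4 and 10.7 CPM (log2 fold change -1.61, edgeR adjusted p = 0.953). GALT, the galactose-1-phosphate uridylyltransferase gene, had a log2 fold change of -1.33 and the ciliogenesis gene CPLANE2 one of -1.53, also with no overlap.

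ARID3A, an AT-rich DNA-binding transcription factor, was at 7.35, 20.03 and 15.7 CPM in the vector libraries and at 0.12, 0.0781 and 1.40 CPM in the TRPML3 libraries (log2 fold change -4.77 ± 0.96 SE, edgeR adjusted p = 0.953). TRPML3 replicates 1 and 2 were at or near the level of 3 counts, and TRPML3 replicate 3 was above them. Without TRPML3 replicate 3 the gene was called, with a log2 fold change of -7.13 (edgeR adjusted p = 0.0067). In starved cells ARID3A was at 21.0, 16.6 and 19.3 CPM with the vector and at 0.263, 0.12 and 0.289 CPM with TRPML3, so the low values occurred with TRPML3 in both serum conditions. Most genes of the sets above differed from this. Starved CBX6 was at 45.6, 39.6 and 50.3 CPM with the vector and higher, at 56.3, 84.2 and 86.3 CPM, with TRPML3. ZNRD2 was lower with TRPML3 in starved cells, GALT was lower in both conditions, and in the others the starved groups overlapped.

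By a DESeq2 Wald test on the same counts, 30 of 17958 genes were called (0.167%), 14 higher and 16 lower, and both edgeR calls were among them. Apart from the genes with a smaller edgeR adjusted p given beside them, all genes named here and below had an edgeR adjusted p of 1. Of these 30 genes, 28 had an unadjusted edgeR p under 0.05 and 22 had groups that did not overlap. The shares of all tested genes were 2.21% and 7.09%, and both measures use the same counts as the DESeq2 calls. Besides the genes above, the higher calls were SLC23A2, a vitamin C transporter gene, at 26.3, 34.9 and 0.326 CPM with TRPML3 and at most 0.617 CPM with the vector, and 5 rows at 0 in all vector libraries. Of those 5, the YAP target CCN2 was at 28.9, 0 and 4.47 CPM with TRPML3 and the read-through row FMC1-LUC7L2 at 15.9, 0 and 0 CPM. HSPE1-MOB4, also a read-through row, was at 38.4 CPM in TRPML3 replicate 3 and at 0 in the other 5 fed libraries. TRIM6-TRIM34 was at 0.888, 1.22 and 1.21 CPM (edgeR adjusted p = 0.953), while TRIM34, which it overlaps, was at 0.823, 1.07 and 1.12 CPM with the vector and at 0.288, 0 and 0.0978 CPM with TRPML3. VSIG1 was at 0.144, 0.104 and 0.717 CPM. In FMC1-LUC7L2 and HSPE1-MOB4 the counts came from 1 library each, so their calls rest on that library, and these were the 2 of the 30 with an unadjusted edgeR p above 0.05.

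The other lower DESeq2 calls included genes in which 1 vector library set the difference. ABLIM1, an actin-binding LIM gene, was at 3.71, 6.85 and 156 CPM with the vector and at 0.408, 0.911 and 3.94 CPM with TRPML3. DIAPH1, a formin gene, was at 2.09, 26.7 and 0.631 CPM against 0.528, 0.521 and 0.456 CPM. TALAM1, the antisense partner of MALAT1, was at 23.5 CPM in vector replicate 3 and at 0 in the other fed libraries; whether the counting used strand is not given in the sources used here. The T-box gene TBX15 was at 0, 2.19 and 3.87 CPM against 0 in all TRPML3 libraries, and AP5B1, a subunit of the AP-5 adaptor, was at 0, 6.65 and 10.8 CPM against 0, 0.104 and 0 CPM. The nuclear receptor gene PPARD was at 8.18, 7.42 and 6.91 CPM against 1.20, 0.573 and 0.0326 CPM (log2 fold change -3.62), with the 3 vector libraries close together. SCAF1 was at 10.2, 17.5 and 64.8 CPM against 0.36, 0.182 and 0.913 CPM. HLCS, the holocarboxylase synthetase gene, and GNG13, a G-protein gamma subunit gene, had log2 fold changes of -3.07 and -5.42, and none of these 3 overlapped.

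Among genes at or above 5 CPM in a group, with no overlap and an unadjusted edgeR p under 0.05, 103 were higher and 83 lower. The 12 with the largest positive fold changes included, beyond those above, the neuronal RNA-binding protein gene ELAVL2 (6.55), SMG1 (4.21), MIR4657 (3.01), PRR14L (2.90), LRP11 (2.78), the TGF-beta pathway repressor SKI (2.37) and the GABA receptor gene GABBR1 (2.17), all as log2 fold changes. ELAVL2 was at 8.37, 8.75 and 0.163 CPM with TRPML3 and at 0.0274, 0.137 and 0 CPM with the vector, and SMG1, a kinase of nonsense-mediated decay, was at 181 CPM in TRPML3 replicate 1 but at 5.05 and 4.89 CPM in replicates 2 and 3. Both large fold changes thus rested on 1 or 2 libraries. The microRNA row MIR4657, at 2.85, 0.32 and 1.58 CPM against 11.4, 3.59 and 23.2 CPM, overlaps PURB on the same strand. PURB was at 28.3, 42.0 and 66.2 CPM against 33.2, 18.3 and 63.3 CPM (log2 fold change -0.25). Whether the reads of the MIR4657 row came from PURB transcripts was not tested. The 12 with the largest negative fold changes included NBPF19 (-9.51), TMEM127 (-4.10), TLCD4 (-4.10), the forkhead gene FOXN3 (-4.07), MED12L (-3.19) and MTCO1P12 (-2.57). FOXN3 was at 36.2, 17.9 and 79.8 CPM against 2.57, 1.51 and 3.88 CPM. NBPF19 belongs to a multigene family and MTCO1P12 is a nuclear copy of a mitochondrial gene, so reads could be split between copies.

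Over all tested genes 48.9% had a log2 fold change above 0, and the median was -0.01. Of the 18030 genes, 2.21% had an unadjusted edgeR p under 0.05, 180 higher (0.998%) and 218 lower (1.21%). In 580 genes (3.22%) all TRPML3 libraries were higher than all vector libraries and in 698 (3.87%) all were lower, 1278 genes in all (7.09%). With the replicate block no gene was called by edgeR and 471 (2.61%) had an unadjusted p under 0.05. For the difference between the fed and starved effects no gene was called by edgeR, 374 (2.07%) had an unadjusted p under 0.05, and DESeq2 called 26. These shares are the background for the gene families below, in which a count of higher genes means a fitted log2 fold change above 0 and not a called gene. With scaling by library size alone the median of all genes was -0.08 and only 39.9% were above 0. Of 65 families and marker lists, 37 had a median above 0, and 18 did with that scaling, so the direction of families with medians close to 0 depends on the scaling.

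**Figure D2:**
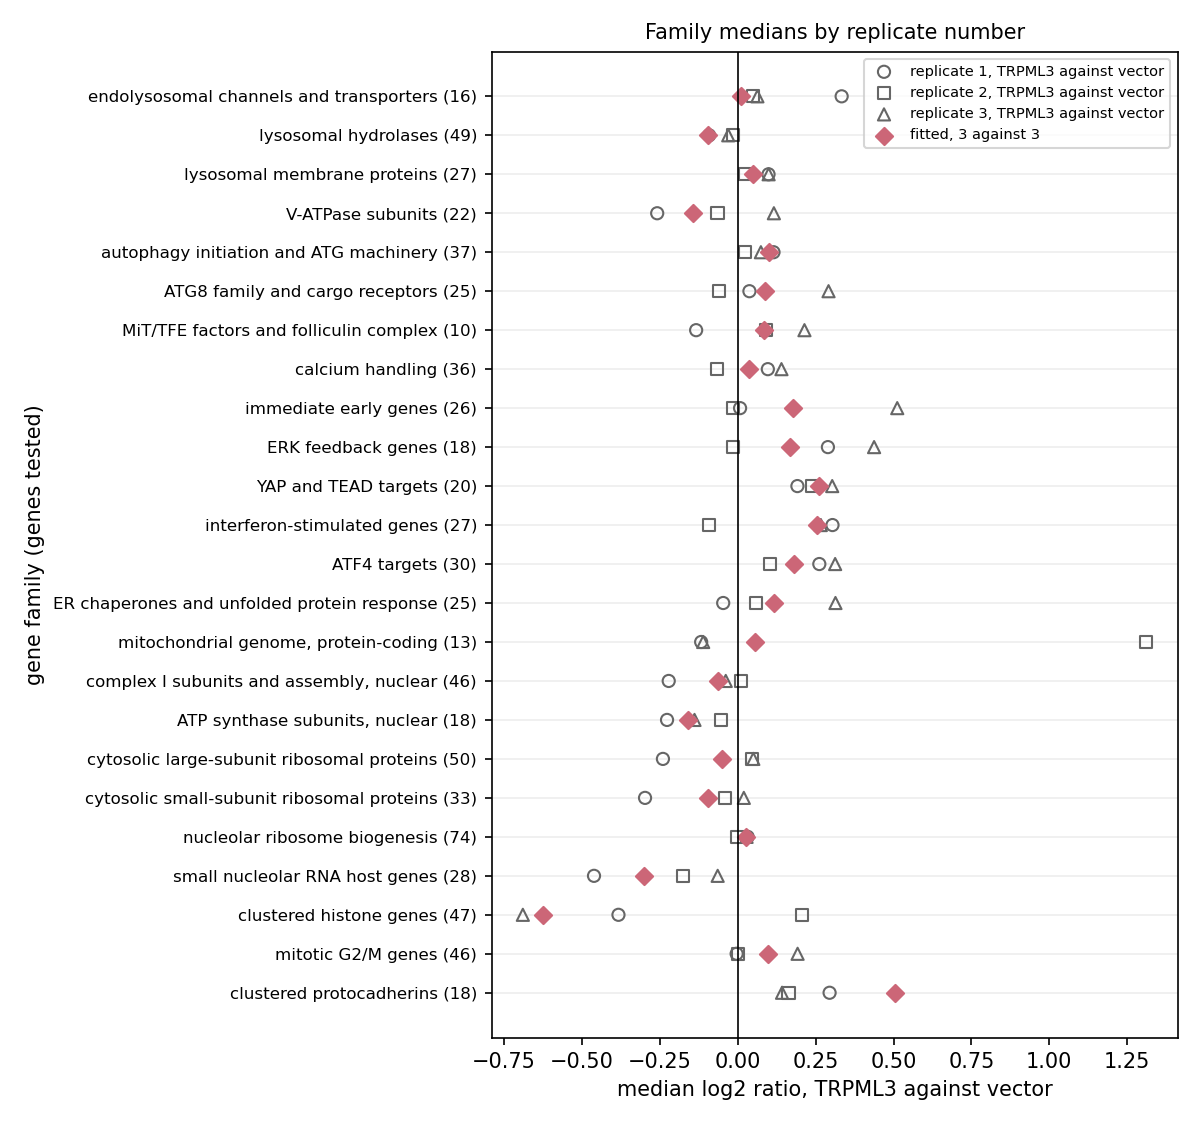
Median log2 ratio of TRPML3 to vector for 24 gene families, with the number of genes tested in parentheses. Open symbols are the ratios of same-numbered libraries (replicates 1, 2 and 3) and red diamonds the fitted 3-against-3 medians; small nucleolar RNA host genes lie below 0 in all 3 replicates, while histone and mitochondrial genome medians change sign between replicates.

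Endolysosomal channels showed no common direction. Of 16 tested channels and transporters, MCOLN3 included, 9 were higher, with a median log2 fold change of 0.01 that was -0.15 without vector replicate 2 and 0.29 without vector replicate 3. The paralog MCOLN1 was at 6.48, 3.79 and 5.68 CPM with the vector and 4.77, 4.82 and 6.52 CPM with TRPML3, and MCOLN2 was at 14.8, 17.0 and 25.2 CPM against 25.5, 12.0 and 19.8 CPM. Both paralogs overlapped fully between groups and had log2 fold changes of 0.01, with standard errors of 0.32 and 0.39. CLCN3 and CLCN5, chloride-proton exchangers of endosomes, were the other members without overlap, both higher, against 3.22% of all tested genes. CLCN3 was at 81.2, 151 and 121 CPM against 214, 174 and 151 CPM (log2 fold change 0.61, unadjusted edgeR p under 0.05). Its highest vector library and its lowest TRPML3 library were nearly equal. CLCN5 was at 2.39, 35.9 and 8.58 CPM against 44.3, 43.2 and 41.5 CPM, with wide spread among vector libraries only. Of 16 TRP channels outside the mucolipins 8 were higher, and TRPV1, the capsaicin receptor gene, with a log2 fold change of -3.08 was above 1 CPM in vector replicate 3 only.

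Medians of the lysosomal lists lay between -0.14 and 0.05. Of 49 tested hydrolases 17 were higher (median -0.10), and none had an unadjusted edgeR p under 0.05. Among hydrolases 1 was higher and 4 were lower without overlap, against 3.22% and 3.87% of all tested genes. The lower ones included the beta-mannosidase gene MANBA at 19.2, 19.8 and 13.5 CPM against 8.49, 9.16 and 10.8 CPM. The aspartylglucosaminidase gene AGA, also lower, was at 10.13, 10.8 and 19.5 CPM against 10.12, 4.66 and 9.75 CPM. In AGA the replicate 1 libraries of the groups were nearly equal. The hydrolase median lay between -0.18 and -0.08 over the scalings. When libraries were left out in turn it lay between -0.20 and 0.01, and it crossed 0 without vector replicate 3. Of 27 lysosomal membrane protein genes 17 were higher (median 0.05, and -0.02 with library size alone). LAMP2 was at 284, 348 and 317 CPM against 354, 355 and 370 CPM, higher in all TRPML3 libraries by a small margin, and TMEM9 was lower (log2 fold change -0.84, unadjusted edgeR p under 0.05). Of 22 subunits of the V-ATPase, the lysosomal proton pump, 9 were higher (median -0.14, and 0.03 without TRPML3 replicate 2). The V-ATPase median lay between -0.22 and -0.13 over the scalings. TCIRG1 was lower at 1.67, 1.71 and 1.72 CPM against 1.20, 1.20 and 0.652 CPM.

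Many lysosomal promoters carry the sequence CACGTGAC, the core of the element bound by TFEB and TFE3. It was searched on both strands in RefSeq windows of GRCh38.p14 from 250 bases before to 50 bases after each gene's start. The motif was in 8 of 33 hydrolase windows (24.2%), 4 of 23 of lysosomal membrane protein genes (17.4%), 3 of 16 of V-ATPase genes (18.8%) and 4 of 15 of channel genes (26.7%), against 2.93% of all 27305 genes with a window. The motif is shown in capitals, 5′ to 3′ on the gene's strand, for 4 genes that differ in role, to set the sequence beside the levels.
CTSD, chr11:1763951-1763990 (minus): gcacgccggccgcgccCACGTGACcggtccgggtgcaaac
GAA, chr17:80101489-80101528 (plus): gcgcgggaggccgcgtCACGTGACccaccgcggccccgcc
LAMP1, chr13:113297195-113297234 (plus): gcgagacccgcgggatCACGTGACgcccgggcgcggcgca
ATP6V1G1, chr9:114587695-114587734 (plus): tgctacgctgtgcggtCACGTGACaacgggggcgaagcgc
The capitals begin 47, 76, 28 and 58 bases before the start of CTSD, GAA, LAMP1 and ATP6V1G1. CTSD, the cathepsin D gene, was at 40.9, 36.2 and 30.3 CPM against 33.1, 40.9 and 31.0 CPM (log2 fold change -0.03), and GAA, the acid alpha-glucosidase gene, was at 28.7, 25.2 and 33.6 CPM against 22.7, 25.4 and 31.8 CPM (-0.13). LAMP1 had a log2 fold change of 0.19 and ATP6V1G1, at 135, 140 and 156 CPM against 149, 145 and 170 CPM, one of 0.11. In each of the 4 genes the groups overlapped. The 8 hydrolases with the motif had a median log2 fold change of -0.13 and 1 was higher, and the 25 without it had a median of -0.01 and 11 were higher. A match is a description of the letters only.

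The genes of TFEB and its relatives did not separate the groups. TFEB was at 3.05, 2.26 and 2.15 CPM against 2.38, 2.68 and 2.51 CPM and TFE3 at 65.8, 39.9 and 35.0 CPM against 45.3, 40.7 and 41.5 CPM. Of 10 tested genes of this family and the folliculin complex 7 were higher (median 0.08), with the folliculin partner FNIP1 at 68.1, 99.4 and 87.8 CPM against 99.5, 106 and 133 CPM (log2 fold change 0.41, unadjusted edgeR p under 0.05). Of 33 mTORC1 nutrient-sensing genes 14 were higher (median -0.03, and 0.10 without TRPML3 replicate 1), and of 24 calcineurin, NFAT and calmodulin kinase genes 9 were (median -0.05). Of 36 calcium-handling genes 21 were higher (median 0.03). The calcium-binding ER protein gene RCN1, at 211, 230 and 286 CPM against 386, 330 and 344 CPM, stood out among them (log2 fold change 0.54, unadjusted edgeR p under 0.05).

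Genes of the autophagy machinery leaned slightly upward, with opposite differences in the kinase complex that starts the process. Of 37 genes of the ATG machinery 27 were higher, with a median log2 fold change of 0.10 that lay between 0.03 and 0.11 over the scalings and between 0.08 and 0.17 when libraries were left out. ULK1, the initiating kinase, was at 25.4, 28.5 and 23.8 CPM with the vector and at 11.2, 3.12 and 12.5 CPM with TRPML3 (log2 fold change -1.53 ± 0.58 SE, unadjusted edgeR p under 0.05). RB1CC1, the FIP200 scaffold of the same complex, was at 119, 67.8 and 82.6 CPM with the vector and at 239, 153 and 151 CPM with TRPML3 (log2 fold change 1.01 ± 0.35 SE, unadjusted edgeR p under 0.05). Neither overlapped, and both had an edgeR adjusted p of 1. Over the list 4 genes were higher and 3 lower without overlap, against 3.22% and 3.87% of all tested genes. The others were ATG4A, ATG4D and WDR45B, higher, and STX17 and VAMP8, lower. Of 25 ATG8 proteins and cargo receptors 16 were higher (median 0.09, and -0.01 without vector replicate 3). The mitophagy receptor gene FUNDC1 was at 33.6, 35.0 and 21.3 CPM against 58.1, 72.3 and 43.1 CPM (log2 fold change 0.95), and the receptor gene SQSTM1 was at 34.4, 34.5 and 59.8 CPM against 53.1, 40.1 and 117 CPM, with overlap. Of 27 genes of lysosome positioning and tethering complexes 15 were higher (median 0.07, and -0.12 without TRPML3 replicate 3).

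Neuronal development genes were balanced in fed cells. Of 63 tested genes of 72 listed 32 were higher and 31 lower, with a median of 0.01 (-0.09 and 0.16 without TRPML3 replicates 1 and 3). Without overlap 3 were higher and 3 lower, against 3.22% and 3.87% of all tested genes. Those higher were the ephrin receptor gene EPHB2, at 3.02, 3.45 and 2.75 CPM against 5.23, 12.2 and 7.99 CPM, the synaptotagmin gene SYT1, at 6.26, 18.1 and 16.9 CPM against 28.9, 39.5 and 23.9 CPM, and the internexin gene INA, at 27.0, 24.2 and 23.7 CPM against 41.0, 31.1 and 27.8 CPM. Those lower were NES, the adhesion molecule gene NCAM1 (log2 fold change -1.07, unadjusted edgeR p under 0.05) and the guidance receptor gene ROBO1, at 69.0, 59.8 and 25.8 CPM against 1.51, 25.8 and 25.4 CPM. In ROBO1 the lowest vector library and the highest TRPML3 library were nearly equal. NLGN2, a synaptic adhesion gene, was higher with overlap (log2 fold change 1.21, unadjusted edgeR p under 0.05). Of 18 tested clustered protocadherins 13 were higher with a median of 0.50, but 35 of the 53 listed were too low to be tested and the median was 0.02 without vector replicate 1. Of 36 HOX genes 18 were higher (median 0.00).

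The small nucleolar RNA host genes formed the family with the most one-sided direction among those of 10 or more genes. Host genes are transcribed into spliced long non-coding RNAs whose introns release small nucleolar RNAs, and their spliced RNAs tend to be degraded in step with translation. Of 28 tested host genes 1 was higher and 27 were lower, with a median log2 fold change of -0.30. The medians of replicate ratios were -0.46, -0.18 and -0.06 for replicates 1, 2 and 3, so the pair of replicates 3 was near 0. Lower values in all 3 replicate pairs occurred in 16 of the 28, and higher values in all 3 in 0, against 13.7% and 13.3% of all tested genes. The median lay between -0.37 and -0.29 over the scalings and between -0.33 and -0.12 when libraries were left out, nearest to 0 without vector replicate 1. No host gene was called, and SNHG14 was the only one with an unadjusted edgeR p under 0.05, at levels under 1 CPM.

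At the level of single genes the differences were small. SNHG8 was at 91.1, 82.8 and 76.9 CPM against 64.9, 66.6 and 62.4 CPM (log2 fold change -0.37) and SNHG1 at 334, 290 and 282 CPM against 266, 263 and 281 CPM (-0.16). These and SNHG14 were the 3 host genes without overlap, all lower, against 3.87% of all tested genes. SNHG5 was at 264, 228 and 207 CPM against 212, 224 and 175 CPM, and ZFAS1 at 166, 139 and 114 CPM against 122, 119 and 114 CPM. In both, vector replicate 1 was the highest library. GAS5 was at 491, 351 and 461 CPM against 407, 364 and 463 CPM, and the only host gene that was higher, SNHG31, had a log2 fold change of 0.11.

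Some host genes begin with a pyrimidine tract, as most ribosomal protein genes do, a feature of transcripts whose translation follows mTORC1. A C followed by at least 4 pyrimidines at the start, searched on the gene's strand only, was present in 6 of 24 host genes with a RefSeq window (25%), in 28 of 39 large-subunit (71.8%) and 19 of 26 small-subunit (73.1%) ribosomal protein genes, and in 5.14% of all genes with a window. Sequences of 4 of the 6 host genes from 15 bases before the start, with the tract in capitals, show how tract length varies within the family.
SNHG12, chr1:28581844-28581888 (minus): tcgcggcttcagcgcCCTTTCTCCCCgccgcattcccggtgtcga
SNHG32, chr6:31834901-31834945 (plus): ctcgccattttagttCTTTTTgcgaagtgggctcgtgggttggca
SNHG5, chr6:85678704-85678748 (minus): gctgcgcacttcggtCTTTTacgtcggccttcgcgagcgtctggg
ZFAS1, chr20:49278627-49278671 (plus): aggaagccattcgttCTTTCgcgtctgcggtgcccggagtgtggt
SNHG12, with the longest tract of these 4, had a log2 fold change of -0.30, SNHG32 one of -0.12, SNHG5 one of -0.19 and ZFAS1 one of -0.24. The 6 host genes with a tract had a median of -0.24, and the 18 without one had a median of -0.30. A tract that began at another base than the annotated start was not counted, so genes without one may include such cases. Ribosomal protein genes, which share the tract, were nearer to 0. Of 50 large-subunit genes 14 were higher (median -0.05) and of 33 small-subunit genes 10 were (median -0.10), and in both lists only replicate 1 was clearly lower, with median ratios of -0.24 and -0.30. RPL14 was higher at 818, 762 and 858 CPM against 930, 1094 and 986 CPM (unadjusted edgeR p under 0.05).

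Nuclear-retained RNAs and nuclear genes of ATP synthase and the respiratory complexes also leaned downward, the mitochondrial lists by small amounts. Of 8 nuclear-retained RNAs 1 was higher (median -0.44), and MALAT1 was at 1892, 1563 and 1742 CPM against 1282, 1206 and 1287 CPM, with no overlap and a log2 fold change of -0.46 ± 0.40 (SE). The median of these 8 was -0.11 without vector replicate 3. Of 18 nuclear genes of ATP synthase 3 were higher (median -0.16), with median ratios of -0.23, -0.05 and -0.14 in the 3 replicates. Of 25 genes of complexes II to IV 9 were higher (median -0.13), and 4, COX5A, COX5B, COX8A and UQCR11, were lower without overlap. Over all tested genes 3.87% were lower without overlap. COX5B was at 51.1, 51.6 and 54.0 CPM against 41.7, 43.1 and 40.7 CPM, a separation of tight groups with a log2 fold change of -0.32. Of 46 complex I genes 16 were higher (median -0.06).

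**Figure D3:**
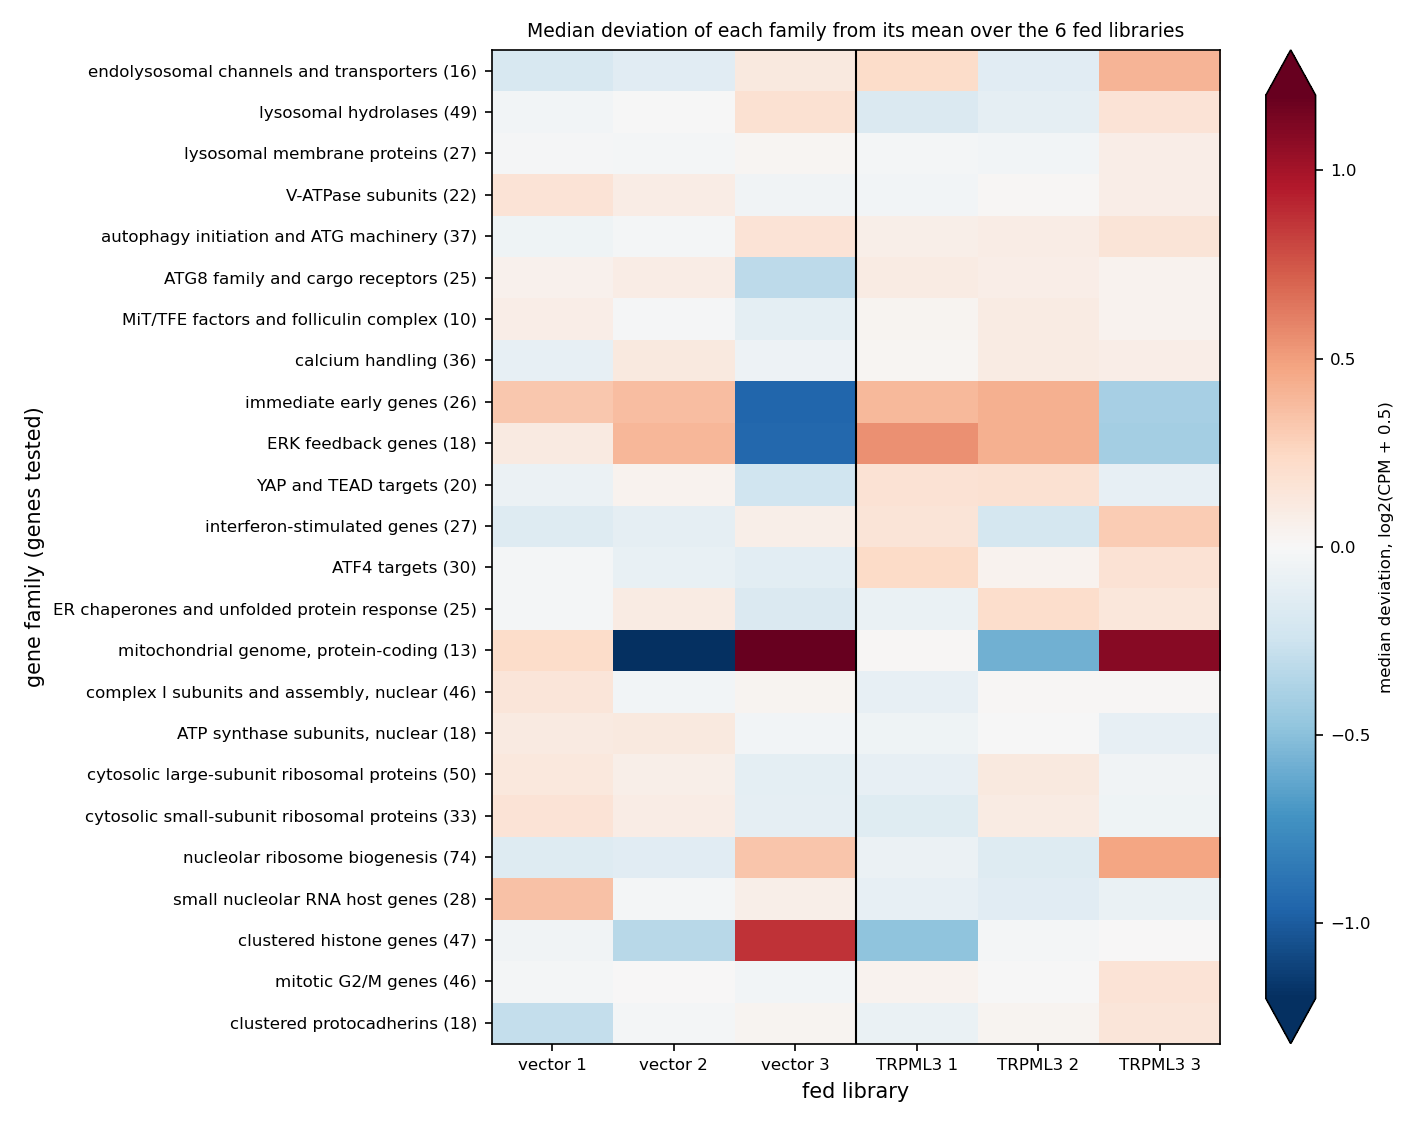
Median deviation of each family's genes from their mean over the 6 fed libraries, in log2(CPM + 0.5), with families in rows and libraries in columns and a line between vector and TRPML3. Red is higher and blue lower, with colours clipped at the ends of the scale; mitochondrial genome genes are low in vector 2, most histone genes are high in vector 3, and immediate early genes are low in vector 3 and TRPML3 3.

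Mitochondrial genome genes differed widely between single libraries, and the direction of their median changed with the library left out. All 13 protein-coding genes were lower in vector replicate 2 than in both other vector libraries, and all 13 were higher in vector replicate 3 and in TRPML3 replicate 3 than in the other libraries of their groups. Their summed level was 19430, 4880 and 38570 CPM with the vector and 18100, 11920 and 35910 CPM with TRPML3. MT-CO1, for example, was at 2858, 674 and 5531 CPM against 2437, 1417 and 5316 CPM. The median log2 fold change was 0.05, with 9 genes higher, and it was -0.48 without TRPML3 replicate 3 and 0.87 without vector replicate 3. In 7 of the 13 genes vector replicate 2 was at least 4-fold below both others.

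The histone genes had the lowest median of the large families, and the direction of that median rested on 1 library. Of 47 tested genes of 82 listed 7 were higher, with a median log2 fold change of -0.63, while the replicate ratios had medians of -0.38, 0.21 and -0.69. Vector replicate 3 was above both other vector libraries in 37 of the 47. The summed level of the list, set by a few abundant members, was in contrast lowest there among the vector libraries, at 820, 632 and 386 CPM against 483, 529 and 332 CPM with TRPML3. The median was 0.20 without vector replicate 3, so its direction changed, and -0.79 without vector replicate 2. H4C5 was at 5.19, 2.06 and 15.6 CPM with the vector and at 2.76, 3.88 and 3.65 CPM with TRPML3, which shows the pattern. H2AC6 was at 6.53, 5.09 and 5.88 CPM against 3.53, 2.03 and 4.63 CPM (log2 fold change -0.78, unadjusted edgeR p under 0.05), with vector replicate 1 as the highest library, and H4C8 had a log2 fold change of -1.53 (unadjusted edgeR p under 0.05). Most cluster histone mRNAs carry no polyA tail, most members were at a few CPM in these polyA-enriched libraries, and near-identical histone copies can share reads.

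Immediate early genes, which respond within minutes to growth factors, were mostly low in replicate 3 of both groups. Of 26 tested 17 were higher with TRPML3 (median 0.18) but none was free of overlap. Vector replicate 3 was below both other vector libraries in 21 of the 26, and TRPML3 replicate 3 below both other TRPML3 libraries in 20. EGR1 was at 210, 344 and 39.4 CPM with the vector and at 466, 318 and 49.1 CPM with TRPML3. FOS was at 17.3, 30.7 and 5.28 CPM against 50.4, 32.3 and 15.5 CPM, and JUN at 834, 694 and 198 CPM against 753, 639 and 275 CPM. In all 3 genes replicate 3 was the lowest library of its group and the groups overlapped. The median of the list was -0.15 without vector replicate 3 and 0.34 without vector replicate 2. Of 18 genes listed as ERK feedback genes 15 were higher (median 0.17, and -0.11 and 0.42 without vector replicates 3 and 2). ETV5, an ETS transcription factor, was at 6.83, 13.8 and 4.90 CPM against 26.0, 16.9 and 15.7 CPM, without overlap (log2 fold change 1.20, unadjusted edgeR p under 0.05). PHLDA2 was lower without overlap, at 0.686, 1.05 and 0.602 CPM against 0.6, 0.573 and 0.261 CPM. Its lowest vector library and its highest TRPML3 library were nearly equal.

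**Figure D4:**
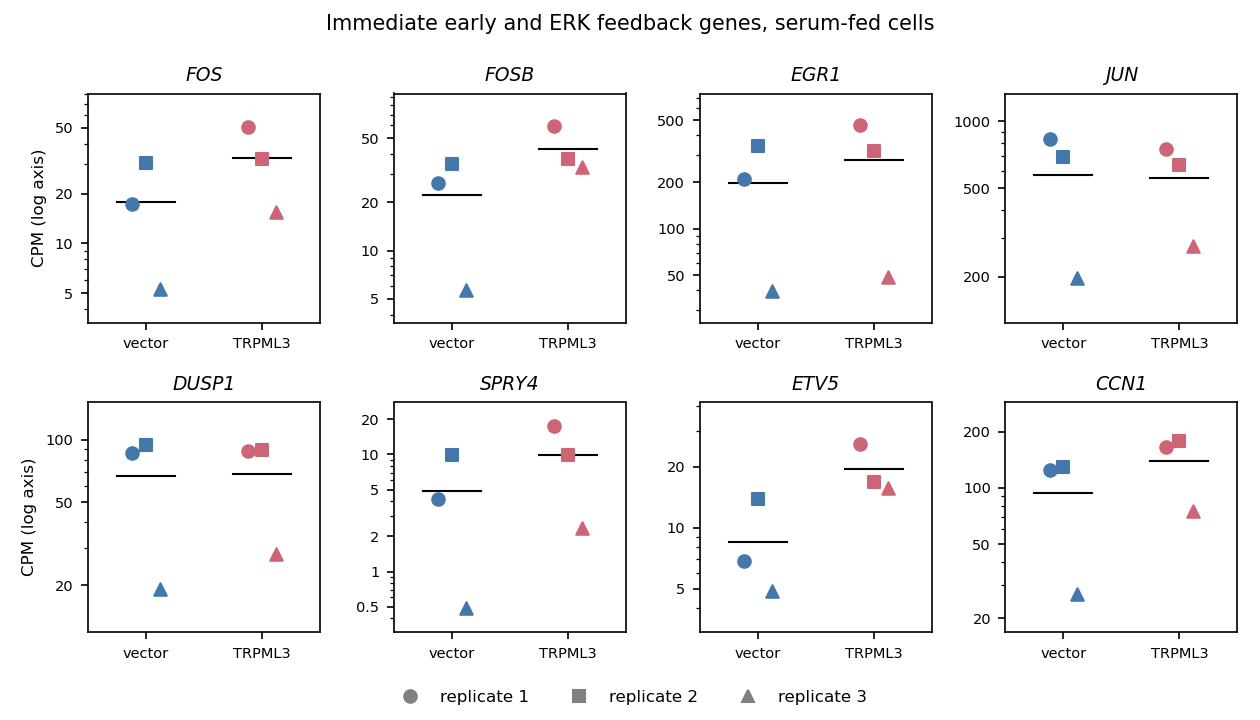
TMM-scaled CPM on a log axis for 8 immediate early and ERK feedback genes in the 6 fed libraries, with vector in blue and TRPML3 in red, 1 symbol per library and a line at the group mean. The triangles of replicate 3 are the lowest of both groups in all 8 genes, and only ETV5 has groups that do not overlap.

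Several other signalling lists leaned upward with TRPML3. Of 20 targets of YAP and TEAD, which respond to cell shape and contact, 15 were higher, with a median of 0.26 and median ratios of 0.19, 0.24 and 0.30 in the 3 replicates. The median lay between 0.20 and 0.28 over the scalings and between 0.18 and 0.36 when libraries were left out, and ANKRD1, at 13.7, 14.9 and 5.48 CPM against 16.3, 17.7 and 17.6 CPM, and AMOTL2 were higher without overlap. Of 30 targets of ATF4, the transcription factor of the amino acid response, 24 were higher with a median of 0.18 and replicate ratios of 0.26, 0.10 and 0.31. The median lay between 0.14 and 0.22 when libraries were left out. PSAT1, of serine synthesis, was at 445, 459 and 410 CPM against 633, 506 and 510 CPM (log2 fold change 0.33), and CTH, of cysteine synthesis, at 3.84, 4.34 and 2.15 CPM against 4.77, 11.7 and 13.2 CPM (1.52), both without overlap. Of 27 interferon-stimulated genes 20 were higher (median 0.26), but the replicate ratios were 0.30, -0.09 and 0.27, the median was 0.09 without TRPML3 replicate 3, and IFIT1, IFI35 and RIGI were higher without overlap. Of 25 ER chaperone and unfolded protein response genes 17 were higher (median 0.11, and 0.04 without vector replicate 3), with replicate ratios of -0.05, 0.06 and 0.31. PDIA3, a disulfide isomerase gene, was higher without overlap at 467, 280 and 475 CPM against 564, 609 and 619 CPM, and SEC61B, of the protein translocation channel, was lower without overlap at 62.6, 60.4 and 57.7 CPM against 51.9, 53 and 52.9 CPM. Over all tested genes, 3.22% were higher and 3.87% lower without overlap. No gene of these lists was called by edgeR, and CCN2 of the YAP list was called by DESeq2.

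Of 448 tested zinc-finger ZNF genes 258 were higher, with a median of 0.07 that was 0.00 with library size alone. Without overlap 23 were higher and 7 lower. The shares of all tested genes, for this and the next lists, were 3.22% and 3.87%. In all 3 replicate pairs 89 were higher and 29 lower, against 13.3% and 13.7% of all tested genes. ZNF518A was at 40.3, 68.9 and 65.6 CPM against 175, 182 and 106 CPM (log2 fold change 1.40, unadjusted edgeR p under 0.05). Of 46 DNA replication genes 25 were higher (median 0.04, and -0.13 without TRPML3 replicate 3 and 0.22 without vector replicate 3), and 7 were higher without overlap and 0 lower. These were PCNA, ORC1, ORC6, RFC5, FEN1, RPA1 and CCNE2. ORC1, of the origin recognition complex, was at 12.4, 18.8 and 20.6 CPM against 22.1, 45.1 and 37.6 CPM (log2 fold change 1.02), and the clamp PCNA at 297, 395 and 298 CPM against 416, 424 and 468 CPM. RFC5, of the clamp loader, was at 56.2, 3.86 and 7.83 CPM against 69.7, 77.8 and 118 CPM and was called when vector replicate 1, its highest vector library, was left out (edgeR adjusted p = 0.046). Of 46 mitotic genes 33 were higher (median 0.10) with 0 free of overlap. Of 53 translation initiation factors 34 were higher (median 0.10, and -0.05 without TRPML3 replicate 3), with EIF3D and EIF4B higher at log2 fold changes of 0.36 and 0.39 and EIF2AK1 lower as given above. Of 20 WAVE and ARP2/3 genes 11 were higher (median 0.03), and NCKAP1, ACTR2 and ARPC2 were without overlap.

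Single libraries stood apart in many genes. A library was counted as apart where it was at least 4-fold above or below both other libraries of its group, with at least 1 library of the group at 5 CPM. This held for 1205 genes, 10.3% of the 11728 that reached 5 CPM in a fed library. By library, 45 genes were above and 147 below in vector replicate 1, 65 and 143 in vector replicate 2, and 117 and 184 in vector replicate 3. With TRPML3, 69 were above and 155 below in replicate 1, 58 and 162 in replicate 2, and 110 and 210 in replicate 3. In each library more genes stood apart below than above, and replicate 3 of both groups had the most in both directions. Vector replicate 3 and TRPML3 replicate 3 shared 12 genes above (10.3% and 10.9% of their lists) and 30 below (16.3% and 14.3%). The share above was similar for vector replicate 2 and TRPML3 replicate 1, with 7 genes (10.8% and 10.1%). Below, the next largest number was 14, for vector replicate 2 and TRPML3 replicate 3 (9.79% and 6.67%). Of the 128 genes that reached 5 CPM and differed at least 4-fold between the groups, 90 (70.3%) had a library apart.

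**Figure D5:**
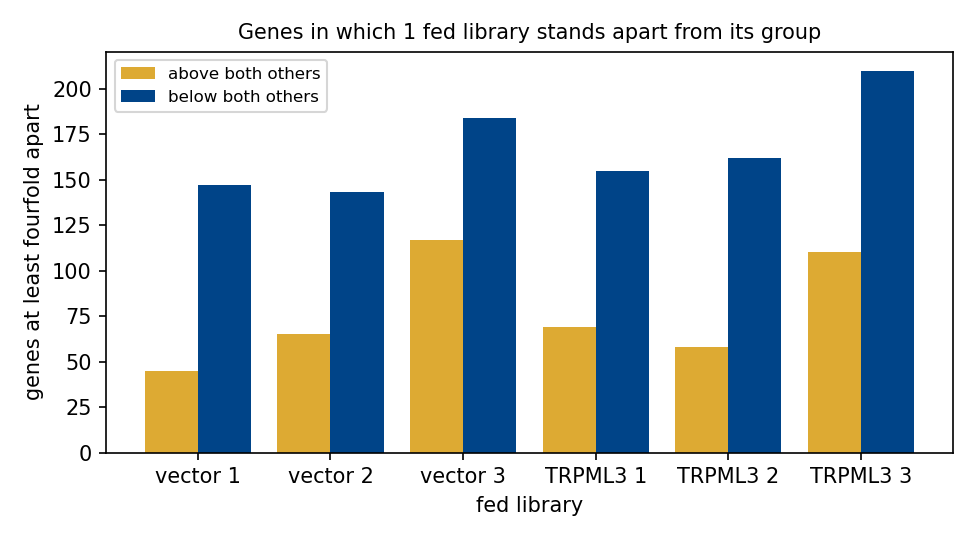
Number of genes in which 1 fed library was at least 4-fold above (yellow) or below (blue) both other libraries of its group, by library. Counts run from 45 to 117 above and from 143 to 210 below, with the highest counts in vector 3 and TRPML3 3.

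Many genes apart below were near 0 in 1 library and well expressed in the rest. TCAF1, a regulator of TRP channel traffic, was at 0.0549, 134 and 161 CPM with the vector and 203, 61.2 and 148 CPM with TRPML3, and the nuclear pore gene AHCTF1 was at 0.549, 295 and 221 CPM against 324, 198 and 28.7 CPM. In both, vector replicate 1 was apart. CD109 was at 0 in vector replicate 2 and between 28.1 and 30.9 CPM in the other 5 libraries. In vector replicate 3 the kinesin gene KIF20B was at 1.38 CPM, against 170 to 321 CPM elsewhere, and RNF169 was at 0, against 41.3 to 131 CPM elsewhere. ICMT, the isoprenylcysteine methyltransferase gene, was at 0 in TRPML3 replicate 1 and at 36.2 to 203 CPM in the other libraries. The prion protein gene PRNP was at 82.8, 91.8 and 76.7 CPM against 128, 88.9 and 0 CPM, so its low value was in TRPML3 replicate 3 alone. In all, 103 genes were at 0 in a fed library while another library of the group was at 5 CPM or more.

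Some patterns repeated across groups or decided a call. ADIPOR2, an adiponectin receptor gene, was at 0.631, 0.411 and 71.4 CPM with the vector and 0.096, 0.104 and 128 CPM with TRPML3, high only in replicate 3 of each group. NUDT4 was at 0, 61.5 and 0 CPM against 161, 0.312 and 0 CPM, so 1 library of each group was apart above. WDR3, a ribosome biogenesis gene, was at 267, 218 and 120 CPM with the vector and 0.168, 0.365 and 399 CPM with TRPML3, and it was called as lower when TRPML3 replicate 3 was left out (edgeR adjusted p = 0.000499). Its groups overlapped with all libraries included. SNX30, a sorting nexin gene, was at 96.4, 110 and 88.6 CPM against 64.4, 0.156 and 0 CPM and was called without TRPML3 replicate 1 (edgeR adjusted p = 0.00267).

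Rows named for a pair of joined neighbouring genes stood apart often, with 25 of the 51 such rows that reached 5 CPM. SENP3-EIF4A1 was at 375, 239 and 0 CPM with the vector and 310, 374 and 0 CPM with TRPML3, and EIF4A1, which it overlaps, was at 375, 374 and 857 CPM against 372, 359 and 1036 CPM. The row at 0 and the higher EIF4A1 value were in the same libraries, replicate 3 of each group. The share of genes apart that overlapped another tested row on either strand was 35.0%, against 39.1% of all genes that reached 5 CPM, and 149 of those 407 genes were still apart after their overlapping rows were summed. A sum with an abundant overlapping row can close the gap whether or not reads were shared between the rows. The sums therefore do not show in how many genes read assignment set a library apart. The part of read assignment in the genes apart was not tested.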

How the data were processed

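RNA of 12 libraries was measured by polyA-enriched RNA-seq. Per the submitters' processing notes the tools were FastQC, fastp, HISAT2, StringTie and DESeq2 with GRCh38; versions, annotation release, strand setting and the counting step are not given in the sources used here. The deposited count table holds whole-number gene counts, made by the authors. The authors' second deposited table holds a signal, the same counts divided by 1 factor for each library, and was used only in an alternative. Gene positions came from GENCODE 29 (93.85% of identifiers matched) and sequences from RefSeq windows of GRCh38.p14.

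Genes were kept by edgeR's expression filter on the 4 groups, TMM-scaled, and fitted over all 12 libraries (8 residual degrees of freedom) with edgeR 4.0.16 in R 4.3.3 by the robust quasi-likelihood test. The contrast was TRPML3 fed against vector fed, and p-values were adjusted over 18030 genes by Benjamini-Hochberg; calls had an adjusted p under 0.05. The p-values measure the spread between these triplicates. The standard error of log2 fold changes had a median of 0.447, and floors of 3 counts cover counting error only. Deviations, replicate ratios and the library-apart rule used log2(CPM + 0.5). The script was tested on simulated data. Same-numbered fed libraries deviated together (correlations over genes of 0.119, 0.163 and 0.356 for replicates 1, 2 and 3), so the replicate number was also fitted as a block. Replicates differed by far more than counting noise. Alternatives were other scalings and filters, the fed libraries alone, the block, DESeq2 1.42.0, limma 3.58.1 on the authors' values, other thresholds, and leaving out libraries.

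The gene lists and members were chosen with earlier results of these data known. Named genes were MCOLN3, every edgeR or DESeq2 call, up to 12 genes in each direction with the largest fold change at an unadjusted p under 0.05, no overlap and at least 5 CPM, list members by position, size or p, and the 6 largest gaps in each library and direction. List members named because their groups did not overlap, H4C5, MT-CO1, BORCS7-ASMT, TRIM34, EIF4A1 and members named beside a printed sequence were chosen after their values were seen.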

Additional observations from a re-analysis of the deposited data

How the results depend on the processing

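Against 2 genes called by edgeR, 1 was called with the 6 fed libraries alone, 1 at an adjusted p under 0.01, 30 by DESeq2 and between 0 and 4 when libraries were left out; all 12 libraries with the replicate block gave 0, and the fed libraries alone with the block gave 0. The 398 genes at an unadjusted p under 0.05 became 607 without a count filter, 605 with the block on the fed libraries alone, and 384 (without replicate 1 in every group) to 741 (without replicate 3 in every group) in the leave-outs. MCOLN3 had a log2 fold change of 10.06 with the fed libraries alone (edgeR adjusted p = 0.324), 9.73 with the replicate block and 9.36 with the block on the fed libraries alone (edgeR adjusted p = 0.947), and 8.44 to 10.50 when libraries were left out. That of RSL1D1 was 2.74 in both fits with the replicate block (edgeR adjusted p = 0.101 and 0.236) and 2.66 to 2.81 when libraries were left out. The block changed no other call. Without replicate number 1 or 2 in every group no gene was called (edgeR adjusted p for MCOLN3 0.63 and 0.629, for RSL1D1 0.322 and 0.721), and with vector replicate 2 or 3 left out none was either, with 564 and 538 genes at an unadjusted p under 0.05. Genes called in addition were RFC5 without vector replicate 1, SNX30 without TRPML3 replicate 1, SLC22A23 without TRPML3 replicate 2, ARID3A and WDR3 without TRPML3 replicate 3, WDR3 without replicate 3 in every group, NCKAP1 without TRPML3 starved replicate 1, and NCKAP1 and TRIM6-TRIM34 without TRPML3 starved replicate 3. The 1278 genes without overlap became 1307 (without vector starved replicate 3) to 5944 (without replicate 3 in every group) in the leave-outs; with a fed library left out, a group of 2 was compared. The 1205 genes with a library apart became 3688 at a gap of 1 on the log2 scale and 514 at a gap of 3, and they could not be counted in a group of 2. Of the gene lists, 18 in place of 37 had a median above 0 with library size alone. DESeq2 called 26 genes for the difference between fed and starved effects, where edgeR called 0. The fitted values of FMC1-LUC7L2 and HSPE1-MOB4 became 0 without the TRPML3 library that held their counts and reached 11.26 and 12.49 in other leave-outs; TALAM1 became 0 without vector replicate 3 and reached -11.79. The cause of the other shifts was not tested. Other scalings and filters, limma and the non-robust fit called MCOLN3 and RSL1D1 and no other gene.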

Other observations

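Metabolic and housekeeping lists had medians between -0.08 and 0.14. Of 24 cholesterol genes 11 were higher (median log2 fold change -0.06), and the sterol isomerase gene EBP was at 12.5, 10.0 and 11.1 CPM with the vector and 24.7, 18.9 and 26.7 CPM with TRPML3 (log2 fold change 1.06, unadjusted edgeR p under 0.05). No library of one group reached the other. Of 14 fatty acid synthesis genes 7 were higher (median 0.00), of 22 glycolysis genes 6 (-0.08), of 26 amino acid transporters 16 (0.14), and of 18 NRF2 targets 12 (0.06). Of 17 hypoxia-responsive genes 8 were higher (-0.02), and EGLN1, an oxygen-sensing hydroxylase gene, was at 180, 208 and 168 CPM against 77.2, 140 and 129 CPM, lower in every TRPML3 library (unadjusted edgeR p under 0.05). Of 48 proteasome genes 25 were higher (median 0.00), and the core subunit gene PSMA3 was at 91.1, 73.9 and 78.9 CPM against 115, 141 and 173 CPM (log2 fold change 0.81, unadjusted edgeR p under 0.05). Of 77 mitochondrial ribosomal proteins 34 were higher (-0.02), and NDUFA3 of complex I was at 11.0, 5.28 and 11.6 CPM against 1.94, 4.09 and 2.67 CPM (unadjusted edgeR p under 0.05).

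Among signalling and chromatin lists, 12 of 25 SRF targets (median -0.02), 7 of 14 BMP and TGF-beta targets (0.01), 9 of 20 p53 targets (-0.06), 5 of 12 NF-kB targets (-0.06), and 7 of 18 NOTCH genes (-0.07) were higher. GATA2, in the BMP list, was at 34.3, 8.24 and 54.6 CPM against 0.6, 2.29 and 10.5 CPM, with overlap (unadjusted edgeR p under 0.05). Of 29 SWI/SNF and ARID genes 16 were higher (median 0.05), of 28 Polycomb genes 18 (0.09), of 11 genes of the MYC network 5 (-0.02), and of 20 tubulins 9 (-0.02). Of 24 heat shock genes 13 were higher (median 0.00) and of 8 chaperonin subunits 7 (0.07). Cytosolic tRNA synthetases were higher in 14 of 20 (0.07), with TARS1 at 465, 431 and 665 CPM against 795, 584 and 787 CPM, and mitochondrial ones in 8 of 17 (-0.08). Of 41 splicing regulators 19 were higher (median -0.02), of 10 elongation factor genes 7 (0.09), and of 4 cold-inducible genes 0 (-0.10). No gene of these lists besides ARID3A and CBX6, which DESeq2 called, was called by either tool.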
